A study of Mus musculus with 4 samples.

Results

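Of 7815 broad DNMT3B islands paired with a protein-coding transcript in lung metastases of 4T1 mammary tumour cells of the mouse, 769 held the 3' end of their gene but not its start. They make up 9.84% of these islands (exact 95% interval 9.19 to 10.5) and belonged to 768 genes. Members were all islands paired with an NM_ transcript whose span holds the base where the gene ends, taking the strand into account, and not the base where it starts. The whole list holds 8242 islands. They come from chromatin immunoprecipitation and sequencing with an antibody against DNMT3B. There were 2 DNMT3B ChIP libraries and 2 input libraries of the same source without an antibody, both kinds with the lung labels 3 and 5. Every library was labelled as 4T1 cells from lung metastases in the BALB/c strain. 4T1 is a single cell line, and the labels say neither whether host lung cells were part of the material nor whether the lungs came from separate mice. The lists give positions for the series as a whole, so no value belongs to a library, depth is unknown, and no spread between libraries could be had. Of 23 marker genes of epithelial, lung, endothelial, immune and fibroblast cells, 0 had an end-covering island, beside 3.5% of all protein-coding genes. With a share that low, 0 of 23 genes says nothing particular. A region list cannot check the labelled cell type.

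DNMT3B is a de novo DNA methyltransferase, which adds methyl groups to cytosines that lie before a guanine. Its PWWP domain binds histone H3 methylated at lysine 36, a mark that SETD2 places in the bodies of transcribed genes and that typically grows toward their 3' ends. Gene-body methylation by DNMT3B has been tied to this mark in mouse embryonic stem cells, whereas active CpG-rich promoters usually lack the mark. The end of a gene is where the transcript is cleaved and polyadenylated, and in compact parts of the genome it lies close to the start or the end of the next gene.

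Some end-covering islands ran on across the start of the next gene, and narrow regions from the second deposited list, called with MACS, lay in the same island and named that gene as their nearest. The RefSeq table has 1 promoter window for 4 of these neighbours, from 250 bp before to 50 bp after the gene start, and these are shown because the data bear on them. Each is printed 5' to 3' on the gene's strand with every CpG, the substrate of the enzyme, in capitals. The windows stand on GRCm38.p6, while the build of most deposited positions is not known.
Usp36: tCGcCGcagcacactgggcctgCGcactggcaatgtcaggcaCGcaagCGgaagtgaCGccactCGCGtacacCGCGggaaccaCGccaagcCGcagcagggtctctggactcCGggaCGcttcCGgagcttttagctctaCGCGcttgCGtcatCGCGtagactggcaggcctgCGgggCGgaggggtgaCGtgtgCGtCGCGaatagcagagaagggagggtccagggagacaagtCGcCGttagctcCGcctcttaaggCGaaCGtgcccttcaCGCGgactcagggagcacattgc
Scarf2: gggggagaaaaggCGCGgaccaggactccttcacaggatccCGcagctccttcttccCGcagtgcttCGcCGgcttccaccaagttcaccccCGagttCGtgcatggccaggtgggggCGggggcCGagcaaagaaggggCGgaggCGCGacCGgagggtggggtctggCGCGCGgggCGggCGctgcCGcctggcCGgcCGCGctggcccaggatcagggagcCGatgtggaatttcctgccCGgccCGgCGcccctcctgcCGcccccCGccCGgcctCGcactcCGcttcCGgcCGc
Mbd3: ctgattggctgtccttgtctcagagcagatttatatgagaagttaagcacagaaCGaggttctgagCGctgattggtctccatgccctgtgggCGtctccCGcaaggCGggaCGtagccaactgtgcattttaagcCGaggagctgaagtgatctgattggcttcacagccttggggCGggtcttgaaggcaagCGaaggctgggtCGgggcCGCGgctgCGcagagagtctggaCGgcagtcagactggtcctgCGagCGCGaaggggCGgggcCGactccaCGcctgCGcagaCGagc
Pam16: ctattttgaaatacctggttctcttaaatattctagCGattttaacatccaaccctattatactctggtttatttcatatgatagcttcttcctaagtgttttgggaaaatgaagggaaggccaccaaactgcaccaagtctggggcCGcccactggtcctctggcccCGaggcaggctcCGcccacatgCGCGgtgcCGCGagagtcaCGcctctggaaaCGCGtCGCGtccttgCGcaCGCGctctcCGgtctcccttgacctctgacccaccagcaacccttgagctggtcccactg

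The Usp36 window (chr11:118290195-118290494, minus strand) belongs to a nucleolar deubiquitinase gene whose start lay in the island at the end of Timp2. The Scarf2 window (chr16:17797032-17797331, plus strand) belongs to a scavenger receptor gene, in the island at the end of Klhl22. The Mbd3 window (chr10:80399482-80399781, minus strand) belongs to the gene of a NuRD complex subunit, in the island at the end of Tcf3. The Pam16 window (chr16:4624897-4625196, minus strand) belongs to a gene of mitochondrial protein import, in the island at the end of Coro7. They held 33, 34, 22 and 17 CpGs in this order. Among neighbours with several windows, which are not shown, Map2k7 had windows with 29 and 0 CpGs. Windows of Pnpla6 held 16 or 17, and those of Sphk1 held 6 to 21. The median over 32851 RefSeq windows of the same length was 7, with quartiles of 3 and 20. A CpG, which reads CG on both strands, occurred in 94.6% of all windows. As many CpGs as in the Usp36 window occurred in 8.56% of all windows, and the shares were 7.73% for Scarf2, 23.1% for Mbd3 and 31.4% for Pam16.

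End-covering islands were broad, and most reached at least 500 bp to both sides of the 3' end. The median was 6600 bp wide (quartiles 4400 and 10600 bp), and the range went from 600 bp at Dvl1, a transducer of Wnt signals, to 77000 bp at St3gal1, a sialyltransferase of O-glycans. Start-covering islands had a median of 5500 bp and islands inside genes, which hold neither end, one of 4200 bp. Wider islands reach an end more easily, so the order of widths follows in part from the rule. Inside the gene the members reached a median of 3304 bp back from the 3' end (quartiles 1589 and 5721), and past it 2706 bp (quartiles 1331 and 5000). In 423 of 769 members (55.0%, exact interval 51.4 to 58.6) the longer arm lay inside the gene. The 960 start-covering islands reached 2854 bp into the gene and 2040 bp upstream at the median, with the longer arm inside in 58.2%.

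A margin of at least 500 bp on both sides of the 3' end was present in 651 members (84.7%). Just inside the rule lay the island of Helt, which passed the 3' end by 1 bp, those of Chst12 and Il4ra, which passed it by 7 and 11 bp, and those of Secisbp2, Tmem130 and Hmga1, which reached 15, 16 and 17 bp into the gene. Just outside it, islands in Plekho2, Irf3 and Rab11fip3 stopped 10, 19 and 20 bp short of the 3' end. Islands at Cirbp, Cx3cr1 and Gpx4 began 2, 11 and 16 bp past it. Those of Tcf19, Ydjc and Gdf15 held the whole gene and passed its start by 30, 59 and 65 bp. Few members lay this close: 26 reached under 200 bp past the 3' end, and 24 reached under 200 bp into the gene.

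**Figure D1:**
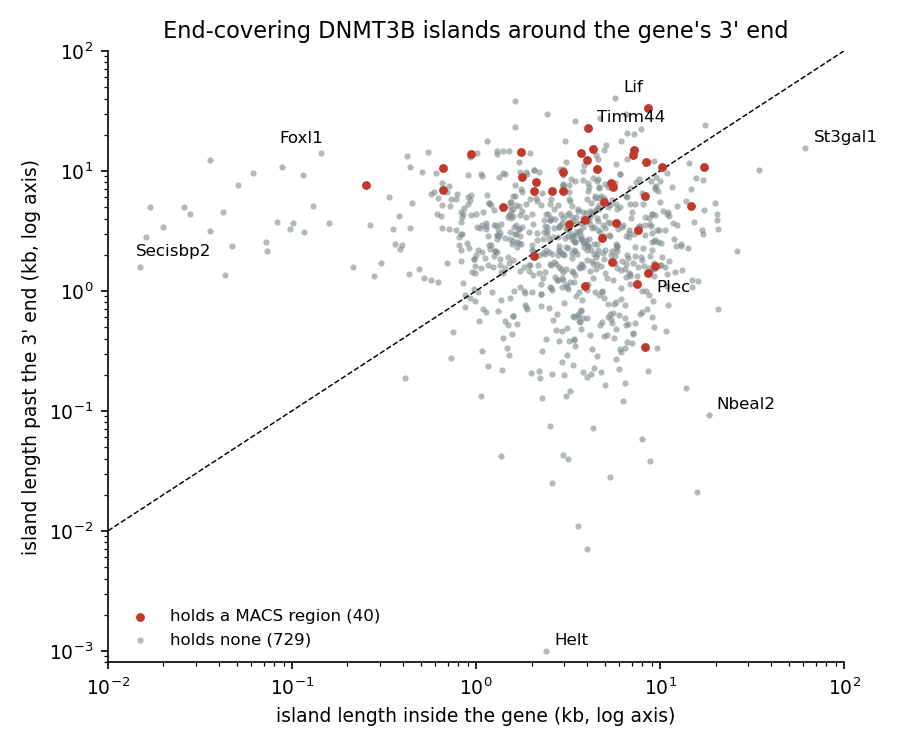
Each point is 1 end-covering island, with its length inside the gene in kb on the horizontal log axis and its length past the 3' end in kb on the vertical log axis, and the dashed line marks equal lengths. The 769 islands spread around medians of 3304 bp inside and 2706 bp past the end. Lif stands highest at 40.1 kb past the end and St3gal1 farthest right at 61.6 kb inside, and the 40 islands with a MACS region are in red.

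Members covered a small part of long genes and much of short ones. At the median an island took up 16.04% of its gene (quartiles 7.01 and 36.3), and 119 members (15.5%) covered more than 50%. Among genes over 20 kb the largest share was at Septin9, a cytoskeletal GTPase gene listed under a spreadsheet date and named here by its accession. Its island of 28200 bp covered 86.8% of a listed transcript of 30.0 kb. St3gal1 followed, with 83.2% of 74.0 kb. The islands of Nbeal2, needed for platelet granules, Thoc5, a subunit of the mRNA export complex THO, Ywhag, a 14-3-3 protein, and Sars, the seryl-tRNA synthetase, covered between 59.9% and 62.3%. At Nbeal2 the island of 18400 bp stopped 92 bp past the 3' end.

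Other members lay mostly beyond the gene. The island at Lif, a cytokine of the IL6 family, was 45800 bp wide, on chromosome 11 from 4166800 to 4212599. It took in the last 5.72 kb of a gene of 14.9 kb and ran 40.1 kb past it, the farthest of all members. The island of 6030468B19Rik ran 38.0 kb past the 3' end and held the whole of Afmid. That of Aatk, a kinase gene, ran 33.6 kb past. Those of Gins2, a subunit of the replicative helicase complex, and Psmd3, a subunit of the proteasome, ran 30.0 and 29.5 kb past. In all, 192 members (24.97%) passed the 3' end by over 5 kb and 59 (7.67%) by over 10 kb. At Foxl1, a forkhead transcription factor gene, 0.144 kb of the island lay in the gene and 14.1 kb past it. At Slc16a3, a lactate exporter, these lengths were 0.114 kb and 9.29 kb.

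The 10 widest members lay on 4 chromosomes. After St3gal1 and Lif came Zhx2, a zinc finger and homeobox repressor gene on chromosome 15, with 44600 bp. Next were Aatk (42200 bp), Wdr67 (Tbc1d31 in RefSeq; 41400 bp), 6030468B19Rik (39600 bp), Psmd3 (36000 bp), Gins2 (32400 bp), Clic6 on chromosome 16 (32200 bp) and Nploc4, a cofactor of the p97 segregase (30000 bp). Of the 769 members, 88 (11.4%) were 15 kb or wider, against 65 of 960 start-covering islands (6.77%) and 100 of 3794 islands inside genes (2.64%).

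End-covering islands were fewer than their mirror image at gene starts, and the gap lay among islands below 8 kb. There were 769 against 960, a ratio of 0.801 (exact interval 0.728 to 0.882). Below 3 kb in width there were 77 end-covering and 159 start-covering islands, a ratio of 0.484. The counts were 165 and 235 from 3 to 5 kb, a ratio of 0.702, and 229 and 281 from 5 to 8 kb, a ratio of 0.815. From 8 to 15 kb the counts were 210 and 220, and from 15 kb upward 88 and 65, a ratio of 1.35. By gene length, the ratio was 0.462 below 5 kb, 0.885 from 10 to 20 kb, 0.949 from 20 to 50 kb and 0.700 from 100 kb upward, where 42 end-covering islands stood against 60. End-covering islands were 16.7% of the islands of genes of 10 to 20 kb and 3.12% of those of genes of at least 100 kb.

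Over all listed transcripts above 20 kb, and counting islands whatever gene they were paired with, the shares of 3' ends and of starts that lay in an island had overlapping intervals. Of 1983 such transcripts 567 (28.6%, exact interval 26.6 to 30.6) had the 3' end in an island and 521 (26.3%, 24.3 to 28.3) the start. Both shares come from the same transcripts, a pairing that the intervals ignore, so their overlap is no test of a difference. The shape on both sides differed. Coverage climbed inside the gene toward its end, with 28.0% of transcripts covered 10 kb before the 3' end and a maximum of 33.8% (31.7 to 35.9) at 3 kb before it. It dropped between 800 bp before the 3' end, at 32.5%, and the end itself, stayed at 29.1% at 1 kb past it and came to 22.2% at 10 kb past. Around starts the maximum was a narrow one of 28.2% at 600 bp inside the gene, with 13.5% at 10 kb upstream and 19.7% at 10 kb inside. A transcript enters the list only if an island lies within 10 kb of it, so these shares do not hold for all genes.

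**Figure D2:**
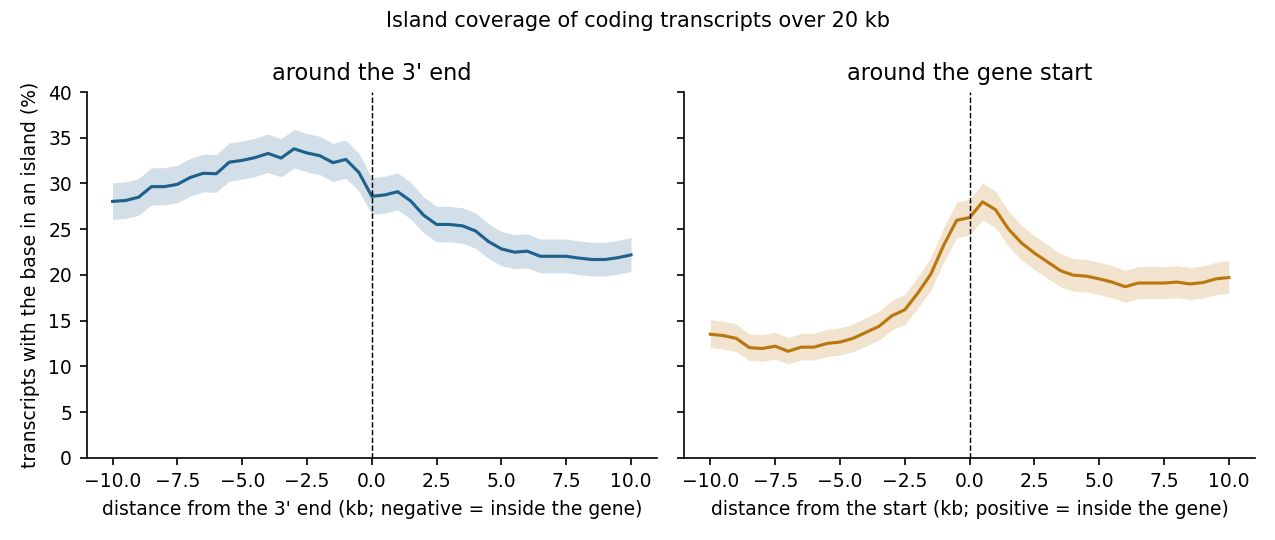
The share in percent of 1983 coding transcripts over 20 kb whose base at each distance in kb lies in any island is drawn around the 3' end on the left and around the start on the right, with exact 95% intervals shaded. Coverage is broad before the 3' end, with 33.8% at 3 kb inside the gene, and forms a narrow maximum just inside the start, with 28.0% at 500 bp.

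Many genes with an end-covering island carried further islands. Among transcripts over 20 kb, 384 belonged to a gene with an end-covering island, some of them other transcripts than the one paired with it, and 1599 did not. Each transcript was cut into 10 equal bins from start to 3' end. Bin 1 was covered to 31.1% on average in the 384 transcripts and to 21.3% in the 1599 others. Bin 5 was covered to 31.0% and 18.2%, and bin 9 to 50.2% and 25.01%, in the same order. Bin 10, at 75.4% and 21.3%, is set by the rule. The island that the rule requires is counted in every bin it reaches, so these values describe the set and carry no test. Of the 768 genes, 549 (71.5%) had at least 2 islands and 299 (38.9%) a further one inside the gene.

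**Figure D3:**
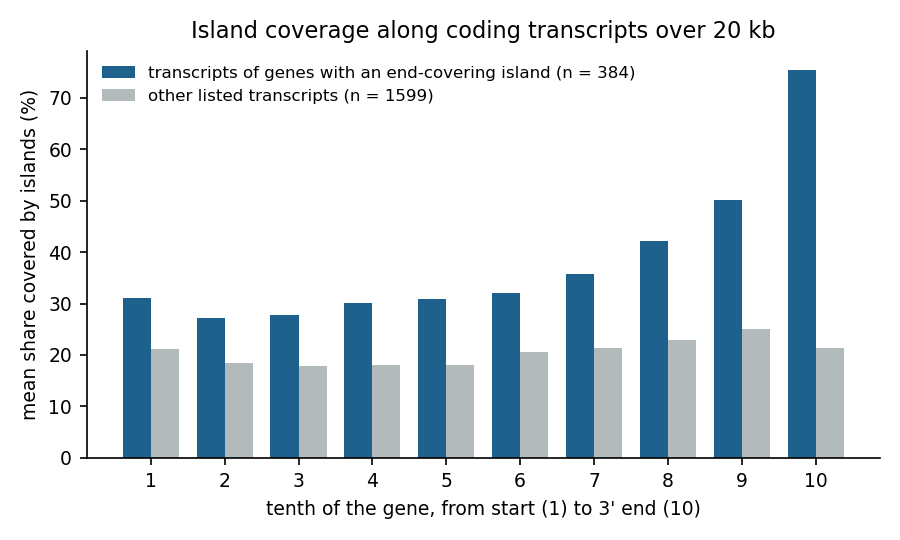
Bars give the mean share in percent that islands cover in each of 10 equal bins of the gene, from the start (1) to the 3' end (10), in coding transcripts over 20 kb of genes with an end-covering island (384, blue) and in other listed transcripts (1599, grey). The high last bar of the blue set follows from how the set was chosen, and its other bins lie between 27.2% and 50.2%, against 17.9% to 25.01% in the grey set.

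A separate start-covering island was present at 210 of the 768 genes (27.3%, exact interval 24.2 to 30.6), against 747 of 2981 other listed genes (25.1%, 23.5 to 26.7), and these intervals overlap. Among genes over 20 kb the shares were 23.9% (89 of 373) and 20.4% (321 of 1571). The genes with the widest such pairs were St3gal1, Tns3, Zhx2, Septin9, Aatk, Asap1, Lif and Crispld2. Tns3, which links integrins to actin, had an end-covering island of 24200 bp and a start-covering one of 48800 bp within a gene of 232.9 kb that carried 13 islands. Asap1, a regulator of Arf GTPases, had 12000 bp at its end and 41800 bp at its start. Notch1 had 5400 bp at its end and 16800 bp at its start, and Stat5a, a transcription factor downstream of cytokine receptors, had 4600 and 10800 bp.

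The members were spread over all chromosomes in the list except 18. Chromosome 11 held 120 members and chromosome 8 held 103, which are 15.6% and 13.4% of all members. As a share of each chromosome's coding islands, members ranged from 5.36% on chromosome 13 (3 of 56) to 13.8% on chromosome 3 (17 of 123) among chromosomes with at least 10 islands and 1 member. Chromosome 16 had 47 of 356 (13.2%, exact interval 9.86 to 17.2) and chromosome 17 had 60 of 486 (12.3%, 9.55 to 15.6). Chromosome 18 had 0 of 33, which allows up to 10.6% by the exact interval. Median member widths were largest on chromosomes 16 and 11, with 9800 and 9600 bp. The plus and minus strands held 373 and 396 members.

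Few end-covering islands held a narrow MACS region. There were 40 of 769 (5.20%, exact interval 3.74 to 7.02), close to the 4.79% of all coding islands, so the share says nothing particular about the members. It was higher than in islands inside genes, with 20 of 3794 (0.527%, adjusted p = 1.35e-17, Fisher's exact test, two-sided, Benjamini-Hochberg over 2 comparisons). It was lower than in start-covering islands, with 155 of 960 (16.1%, adjusted p = 2.34e-13, the same exact test). Islands near each other are not independent, so these p-values describe counting error over islands only. Where gene positions equal GRCm38 the share was 28.6% in 56 end-covering islands, against 59.3% in 59 start-covering and 0.513% in 195 inside islands. Among the 713 end-covering islands at other positions it was 3.37%. The 56 lay on chromosomes 16, 19 and 8 (32, 15 and 9 members), so this contrast also differs in chromosome. Whether both lists stand in the same positions everywhere is not known. Of 536 MACS regions described as overlapping a gene that the SICER list names, 518 lay within 1 kb of it by that list's positions. Other regions were not checked, so a missing overlap by position need not mean a missing region. Members with a MACS region were wider, at a median of 10900 bp against 6400 bp without one. From 3 to 8 kb in width the shares were 2.23%, 14.9% and 0.573% in end-covering, start-covering and inside islands (adjusted p = 6.26e-12 and 0.00325 for end-covering against each, Fisher's exact test).

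Tied by gene name in place of position, neither difference of end-covering islands from the other classes passed the test. A MACS region named the island's own gene, wherever it lay, for 117 of 769 end-covering islands (15.2%), 160 of 960 start-covering islands (16.7%) and 678 of 3794 islands inside genes (17.9%). The adjusted p was 0.429 against start-covering islands and 0.170 against islands inside genes, by Fisher's exact test. Being named belongs to the gene, and the 3794 islands inside genes came from 1853 genes, so the test counts many genes more than once. Whether this bears on the direction was not tested. The excess over islands inside genes was seen by position, and by name the direction turned. These are unlike measures, since by name a region need not lie in the island, and the cause of the turn was not tested.

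**Figure D4:**
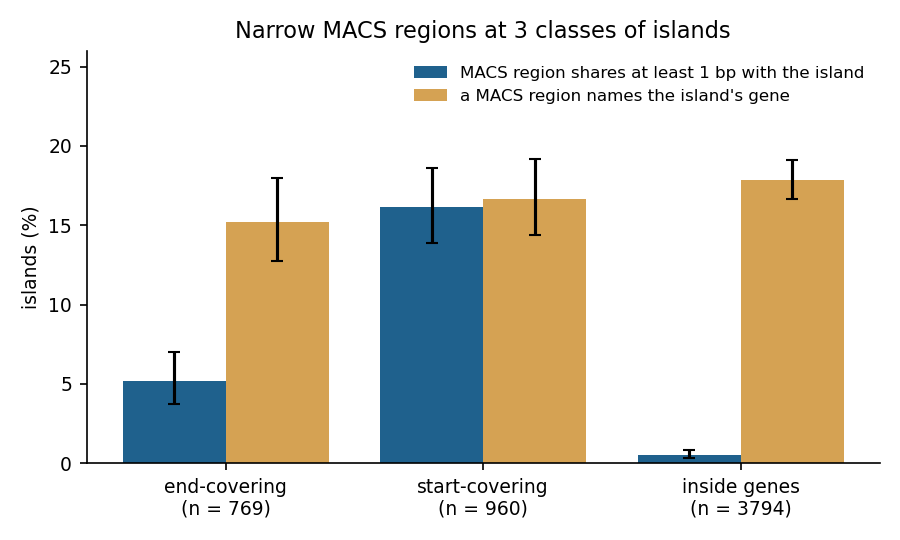
Bars give the share in percent of islands in 3 classes, with exact 95% intervals. Blue bars count islands that share at least 1 bp with a MACS region (5.20%, 16.1% and 0.527% from left to right), and ochre bars count islands whose gene is named by any MACS region (15.2%, 16.7% and 17.9%).

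Most MACS regions in end-covering islands named a neighbour. The 40 islands held 59 regions, of which the deposited list named another gene as nearest for 37 (62.7%, exact interval 49.1 to 75.0). In start-covering islands 160 of 202 regions (79.2%) named the island's own gene, and in islands inside genes 22 of 22 did. All 35 regions past the 3' end in end-covering islands named another gene, while 22 of the 24 on the gene's side named the island's own. By the nearest gene named, no island held both kinds: 28 had only regions of another gene and 12 only regions of their own. The 2 regions on the gene's side that named another gene were at Adat3 and Coro7. They named Scamp4 and Vasn, but were also described as contained within Adat3 and as in an intron of Coro7. Counting only regions whose nearest named gene was the island's own, the share was 1.56% in end-covering, 13.8% in start-covering and 0.527% in inside islands. Which gene is nearest depends on where the island lies around its gene, so all these shares follow in part from the rule. Of the 40 islands with a region, 9 (22.5%) held the start of another gene of the same list, against 30 of the 729 without one (4.12%). Those with a region were also wider, at a median of 10900 against 6400 bp, and this contrast was not matched for width.

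Plec, the gene of the cytolinker plectin, was the member with most regions. Its island of 10000 bp on chromosome 15, from 76000000 to 76009999, held the last 8.60 kb of the gene and 6 regions, all contained within the gene between 1497 and 6197 bp before the 3' end. Ltbp3, the gene of a partner of latent TGF-beta, held 4 regions between 467 and 1372 bp before its 3' end, in an island of 9400 bp on chromosome 19. Rimbp3 on chromosome 16 had 3, in an island of 7200 bp that covered 93.6% of the gene. These 3 islands carried 13 of the 22 own-gene regions.

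The island at the end of Timm44, a gene of mitochondrial protein import on chromosome 8, shows the other kind. Its 26600 bp ran 22.5 kb past the 3' end, over the whole of Map2k7, a kinase that activates JNK. Of its 5 regions, 3 named Map2k7, one of them 270 bp upstream of that gene, and 2 named Ctxn1. At Tcf3, a transcription factor gene on chromosome 10, 2 regions lay 10309 and 9309 bp past the 3' end. They named Mbd3, whose promoter window held 22 CpGs, and one was given as 223 bp upstream of it. At Timp2, an inhibitor of matrix metalloproteinases, 2 regions named Usp36, one of them 441 bp upstream. MACS positions carry at most 6 significant digits, so on chromosomes 10 and 11 such distances are known only to the rounding of the region. At Mcoln1, a lysosomal channel gene, and Klhl22, an adaptor of a ubiquitin ligase, 2 regions each named another gene on the same strand, Pnpla6 and Scarf2.

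Neighbours were taken by RefSeq gene order, only among protein-coding genes with a known direction. The next gene was picked among those that reach beyond the 3' end, so it could overlap or contain the member's gene. It lay on the opposite strand, and so faced the member's gene if they did not overlap, for 359 of 633 genes (56.7%, exact interval 52.8 to 60.6). The share was 52.1% (48.5 to 55.8) for genes with a start-covering island and 52.5% (49.9 to 55.1) for genes with an island inside. It was 48.2% (47.4 to 48.9) for all protein-coding genes with a known direction. It was 63.4% (54.9 to 71.3) where the island reached over 5 kb past the 3' end and 54.7% (50.2 to 59.1) where it did not. These differences were not tested. Within the deposited list, 57 members (7.41%) held the 3' end of another gene on the opposite strand as well, and 29 (3.77%) the start of another gene on the same strand. Genes that the list does not name do not enter these counts.

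Across protein-coding genes in RefSeq, 766 of 21900 (3.5%) had an end-covering island, and of the 3743 with an island of any class 20.5% did. Among 34 gene lists, 23 had at least 1 member and 17 lay above 3.5%. In the 7 signalling lists between 34.3% and 50% of the genes had an island of any class, against 17.1% of all genes, so the second share is the closer comparison. Of 31 lists with any island, 10 lay above 20.5%. No test over lists was made, and nothing is called particular to a list.

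In IL6 and STAT3 signalling, where cytokines act through gp130, Janus kinases and STAT factors, 5 of 35 genes had an end-covering island (14.3%), and 17 had any island. The ligand Lif had the island of 45800 bp that ran farthest past a 3' end. At the transcription factor Stat5a the island of 4600 bp held the last 3.08 kb. Among the inhibitors, Pias3 had 9200 bp, which covered 51.5% of the gene, Pias4 had 5200 bp, and Cish, a feedback inhibitor of the SOCS family, had 2600 bp. All but Pias3 and Cish carried at least 3 islands in all.

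In Wnt signalling 6 of 56 genes had one (10.7%), and 28 had any island. The ligands Wnt10a, Wnt7b, Wnt7a and Wnt9b had islands of 8400, 6600, 5400 and 3000 bp. Wnt7a and Wnt9b also had start-covering islands, of 5800 and 6200 bp. Axin2, an inhibitor and target of the pathway, had 2400 bp, and Dvl1 had the 600 bp that made it the narrowest member. Of the 6, Wnt10a reached farthest past its 3' end, with 5.85 kb.

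In Notch signalling 2 of 35 genes had one, where 16 had any island. The ligand Jag2 had 9600 bp, which covered 43.0% of the gene and stopped 0.600 kb past it, and the receptor Notch1 had 5400 bp that stopped 0.421 kb past. In NF-kB signalling the members were Tnfaip3, a deubiquitinase that ends the response, with 5200 bp, and Map3k14, the kinase of the noncanonical arm, with 4400 bp, 2 of 30 genes. In TGF-beta and BMP signalling they were the ubiquitin ligase Smurf1, with 20400 bp that ran 9.56 kb past the end, and Ltbp3, 2 of 35 genes. In PI3K, Akt and mTOR signalling Mlst8, an mTOR complex subunit, was the member among 35 genes, 16 of which had any island. The MAP kinase cascade had Dusp4, a phosphatase, and Map2k2, a kinase, 2 of 45 genes, and both also had start-covering islands.

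Semaphorins, plexins, Eph receptors and ephrins, guidance molecules that steer the movement of cells and axons, had 7 of 51 genes with an end-covering island (13.7%) and 23 with any. The receptors Epha1, Ephb4 and Ephb3 had 14800, 11000 and 11000 bp, and Plxnb1, a semaphorin receptor, had 8600 bp. The Epha1 island ran 10.3 kb past the 3' end, and its MACS region named Zyx. That of Ephb3 covered 50.7% of the gene, and its MACS region named Ephb3 itself. Efna3, a ligand, and Sema4g and Sema4f completed the group, with 3600 to 4400 bp.

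Solute carriers had 22 of 346 (6.36%), with 86 genes with any island. The widest were Slc25a25, a mitochondrial carrier, and Slc7a5, the light chain of a leucine transporter, both with 15400 bp, then Slc26a11 with 13800 bp and Slc39a13, a zinc transporter, with 13600 bp. The Slc39a13 island covered 67.0% of the gene. The name pattern also took in Slc9a3r1 and Slc9a3r2, which are scaffold proteins and not carriers. Arhgap27 was the gene with 2 members, since islands of 13000 and 8200 bp were paired with different transcripts of it. Collagens, laminins and integrins had 4 of 80, of which the integrins Itgb5 and Itgb4, with 10600 and 8200 bp, were the widest. Col5a1 had 4600 bp at its end, in a gene of 153.1 kb with 10 islands, and Itgb7 had 2600 bp.

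In the smaller lists, tumour suppressors had 3 of 40. These were Nf2, which encodes merlin (15000 bp, of which 11.9 kb past the end), the kinase Stk11 (8400 bp) and the cell cycle inhibitor Cdkn1a (3200 bp). Genes of 3' end processing and termination had 3 of 24, with Ssu72, Cstf1 and Cpsf1 at 4600, 4200 and 2800 bp. Of the 24, 6 had any island. Genes of H3K36 methylation and its readers had 2 of 23, with the lysine methyltransferase Smyd2 at 12200 bp and Supt6h, an elongation factor, at 6600 bp. Twist2 was the member of the 32 epithelial-mesenchymal transition genes, 15 of which had any island. Slco2a1, a prostaglandin transporter, was that of the 13 prostaglandin E2 genes, Igf2r that of the 35 imprinted genes, Tex19.2 that of the 35 germline genes and Plec that of the 24 cytolinkers, 18 of which had any island. Fox, Sox, Tbx and Klf factors had 3 of 93 (Foxl1, Sox13 and Tbx4) and housekeeping genes 2 of 24 (Tubb5 and Pkm2).

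Several lists had no or few end-covering islands. None were seen at 21 genes of the DNA methylation machinery, of which 6 had another island, at 84 ribosomal protein genes, of which 14 did, at 49 keratins, of which 9 did, or at 21 genes of SREBP and cholesterol synthesis, of which 8 did. Endothelial and stromal markers had 0 of 22 and 8 with another island. None were seen at 22 lung epithelium markers, 24 immune cell markers, 82 core histones, 39 Hox genes, 57 clustered protocadherins or 1110 olfactory receptors. In these 6 lists, 6 genes in all had an island of any class. Zfp zinc finger genes had 3 of 397 (0.756%), Zfp385c, Zfp703 and Zfp12, while 32 had any island. Only the exact intervals of Zfp genes (up to 2.19%) and olfactory receptors (up to 0.332%) lay below the 3.5% of all genes. Those of the other lists in this paragraph included it, reaching 16.1% for the DNA methylation machinery and 4.30% for ribosomal proteins. Their counts of 0 therefore do not differ from that share by the intervals.

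**Figure D5:**
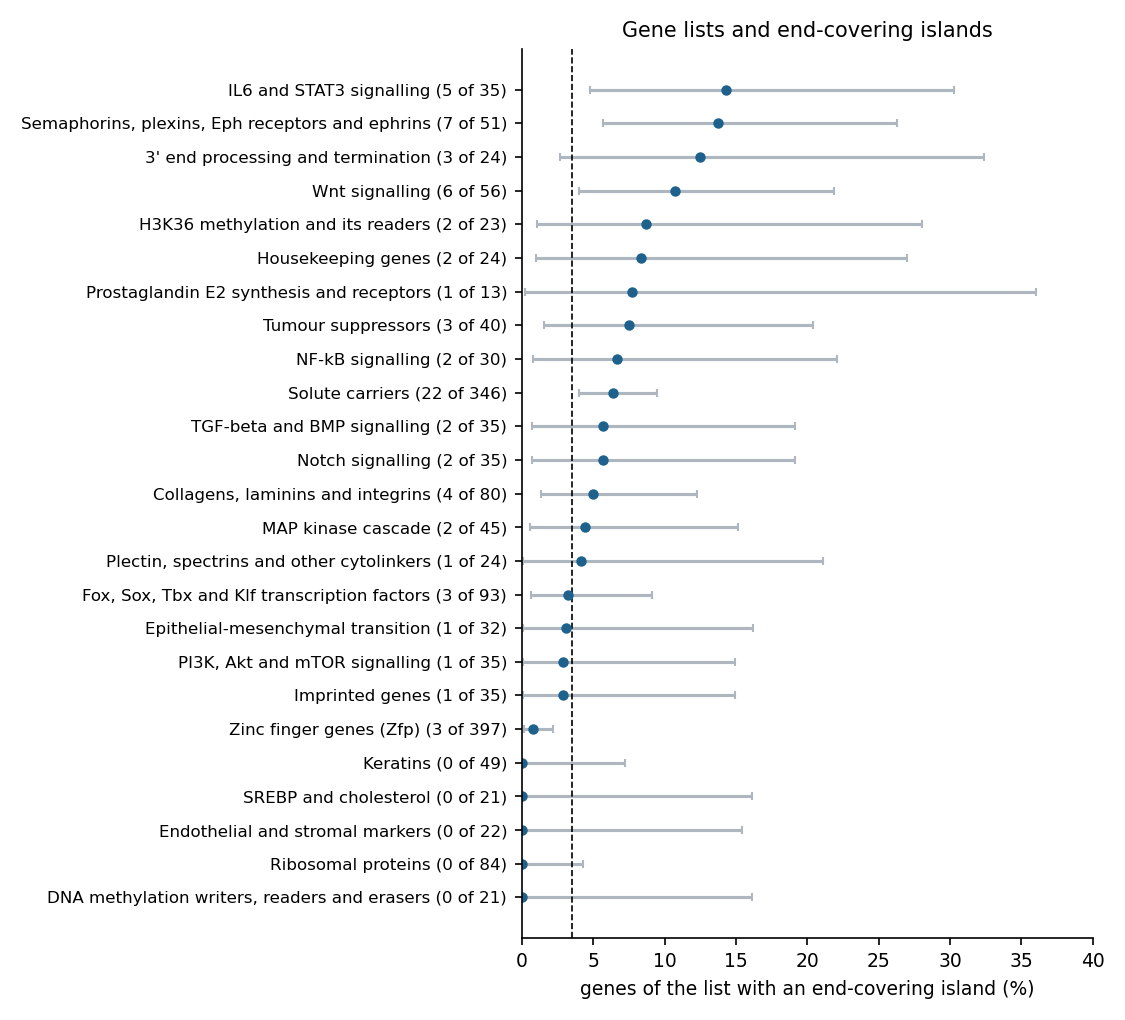
Points give the share in percent of each list's protein-coding genes with an end-covering island, with exact 95% intervals and the counts beside the names, for 25 of the lists in which at least 5 genes had an island of any class. The dashed line marks the 3.5% of all protein-coding genes, and IL6 and STAT3 signalling stands highest at 14.3%. The share among genes with any island, 20.5% over all such genes, is not drawn. By that share 3' end processing and termination stands highest at 50%, which is 3 of only 6 genes. IL6 and STAT3 signalling has 29.4%, which is 5 of 17.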

How the data were processed

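ChIP-seq with an antibody against DNMT3B was deposited as 2 region lists for the whole series, with no value per library. The tools, per the submitters' processing notes, were Bowtie2 2.10, SICER and MACS 1.4. Base positions are the unit of both lists, per the file headers. The lists are named with the words top20 for SICER and MACS2p05 for MACS, which no source used here explains. The name MACS2 differs from the MACS 1.4 of the notes. No further filter behind the lists, and no pooling of libraries, is stated in any source used here.

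The SICER list pairs each island with 1 gene, within 10 kb of it. MACS lines were reduced to 1705 distinct regions, rounded to 6 significant digits by the authors, and 2 ends given as a question mark were set to the start. The notes name mm10, yet both gene ends lay within 1 kb of their GRCm38 positions for 472 of 7815 coding islands, and islands on chromosomes 7 and 8 pass the last GRCm38 gene. The build is therefore not known, and positions are as deposited. Of 536 MACS regions described as overlapping a gene that the SICER list names, 518 lay within 1 kb of it by that list's positions and 192 by those of GRCm38. Islands held the gene start about as often where positions equal GRCm38 (16.5%) as elsewhere (14.8%).

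Islands were classed by script (Python 3.11.15, pandas 2.3.3), a step tested on made-up positions. Shares carry exact Clopper-Pearson 95% intervals, for counting error only. Classes were compared by Fisher's exact test (scipy 1.17.1). All 769 members matched RefSeq by accession or symbol. Genes were named by the rule of width, MACS regions, share covered, reach past the end, paired start-covering island, nearness to the rule's edge and up to 4 per list, and further list members, with Foxl1 and Slc16a3, were named after their values were seen. The results of 2 gene lists are not reported here. The members and lists were chosen with earlier results of these data known.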

Additional observations from a re-analysis of the deposited data

How the results depend on the processing

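Requiring 500 bp on both sides, counting each gene once, taking islands under 15 kb, leaving out islands with the start of another listed gene, or leaving out chromosome 16 (chosen after seeing the data) gave 651 to 768 members, and a ratio to start-covering islands of 0.761 to 0.806. The median reach past the 3' end was 2563 to 2703 bp under 3 of these, 2998 bp with the 500 bp margin and 2395 bp under 15 kb, as the selections by reach and width imply. With genes whose positions equal GRCm38, 56 members were left, the ratio was 0.949 and the median reach was 4186 bp. The cause of these shifts was not tested. The difference in the share with a MACS region was 4.67 percentage points against islands inside genes and -10.9 against start-covering islands. It kept its direction and call in 9 alternatives each, from 1.03 to 28.1 and from -30.8 to -9.98, one of which, regions naming the island's own gene, was also chosen after seeing the data. With genes of equal positions, the share was 28.6% in end-covering islands, against 59.3% in start-covering and 0.513% in inside islands. Tied by gene name, the differences were -2.66 and -1.45 points, and the cause was not tested. No paired analysis was possible because neither list separates the libraries, so none could be left out. Depth is unknown.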
